A study of Saccharomyces cerevisiae with 12 samples.

Results

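The nuclear genes of the respiratory chain and ATP synthase of Saccharomyces cerevisiae were followed through 12 poly(A) RNA-seq samples. They were chosen by name from the 6825 identifiers of the expression table, without use of any measured value, and comprise 42 genes. Of these, 13 encode subunits of ATP synthase, 9 of cytochrome c oxidase and 9 of the bc1 complex. A further 4 encode cytochrome c and the proteins that attach its heme, 4 encode succinate dehydrogenase and 3 encode NADH dehydrogenases. The samples form 4 groups of 3 biological replicates, in 2 experiments on Euc1 (Ymr111c), a DNA-binding protein that recruits the SUMO-targeted ubiquitin ligase Slx5/Slx8 to chromatin. In the deletion experiment, WT was strain DF5a carrying YIplac211-MED11::URA3, and euc1∆ carried in addition the allele ymr111c::natNT2. These cells grew to mid-log phase in YP with glucose, and both groups hold an integrated copy of MED11, which neighbours EUC1 in the genome. In the overexpression experiment, both groups were W303a RAD5 with ymr111c::natNT2, so that the only EUC1 was the integrated YIplac211 construct. It was pEUC1-EUC1 in the control and pGAL-EUC1 in the overexpressing strain. These cultures grew in YP with raffinose to an OD of 0.5, and 2% galactose was then added for 3 h. How many independent clones stand behind a strain is not given in the sources used here.

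The values are TPM, a share of the mRNA of a sample that is corrected for transcript length, so levels of different genes can be compared. TPM keeps no record of read depth, which is therefore unknown. A value is an average over a culture, and less RNA per cell and fewer cells with high RNA cannot be told apart. EUC1 stood at 9.56 to 15.96 TPM in WT, 0 to 0.09 in euc1∆, 30.75 to 50.62 in the control and 1941.7 to 2035.19 with pGAL-EUC1. GAL1 was between 4.86 and 7.36 TPM in the 6 glucose samples and between 4378.58 and 4798.22 in the 6 galactose samples. The groups thus carry the transcripts that their labels name. MED11 was lower in euc1∆, at 35.88 to 48.39 TPM, than in WT, at 62.01 to 65.62.

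The respiratory chain of budding yeast passes electrons from NADH dehydrogenases and succinate dehydrogenase through ubiquinone to the bc1 complex. Cytochrome c then carries them to cytochrome c oxidase, and ATP synthase uses the proton gradient that the chain builds. Budding yeast has no proton-pumping NADH dehydrogenase and relies on single-subunit enzymes instead, which face the matrix (Ndi1) or the intermembrane space (Nde1, Nde2). It is known for turning these genes down on glucose, where it ferments, and up on poorer carbon sources, in large part through the CCAAT-binding Hap2/3/4/5 complex.

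All 42 genes were detected in every sample. In WT, their mean levels ran from 2.10 TPM for NDE2 to 393 TPM for ATP15, with a median of 112 TPM, against a median of 29.6 TPM for all genes tested. In the control they ran from 9.66 TPM for NDE2 to 1866 TPM for QCR6, with a median of 760 TPM, against 42.3 TPM for all genes. Together, the 42 genes made up 0.525% ± 0.035 (SD, n = 3) of all TPM in WT and 0.490% ± 0.017 (SD, n = 3) in euc1∆. Their share was 3.22% ± 0.003 (SD, n = 3) in the control and 3.26% ± 0.050 (SD, n = 3) with pGAL-EUC1. The 6 glucose samples and the 6 galactose samples did not overlap, whereas the 2 groups within each experiment did. Replicates also scattered more in glucose. The median coefficient of variation of the 42 genes was 12.3% in WT and 9.22% in euc1∆, and 2.78% in the control and 4.06% with pGAL-EUC1. For all genes these medians were 11% and 8.09%, and 5.22% and 4.55%, in the same order.

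**Figure D1:**
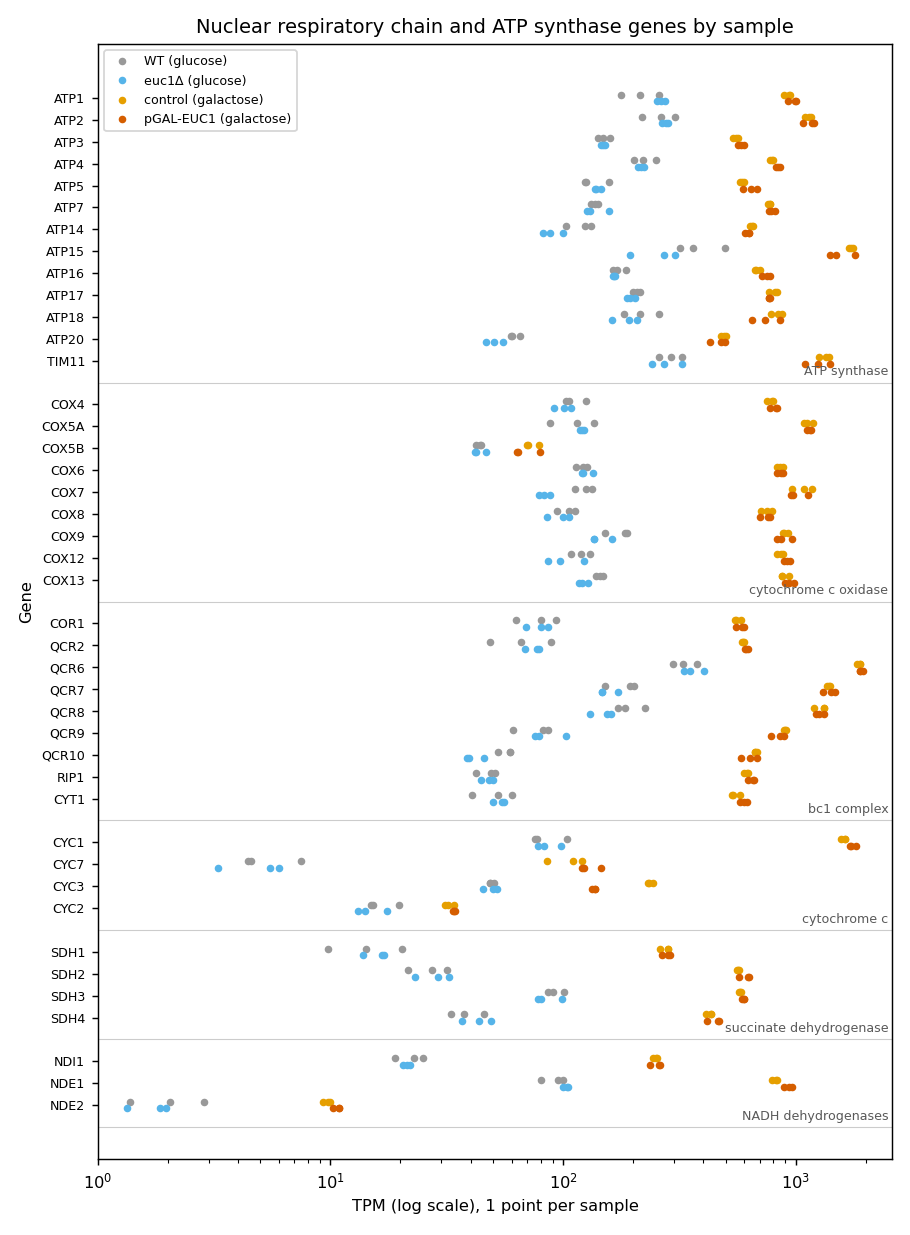
Level of each of the 42 genes in each sample (x axis, TPM, log scale), with 1 point per sample, coloured by group, and genes ordered by complex. The glucose points (grey and blue) lie left of the galactose points (orange and red) in every row, and COX5B and CYC2 show the narrowest gap.

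The control of the overexpression experiment was first compared with WT of the deletion experiment. Both groups express EUC1 from its own promoter, but strain background, medium, EUC1 locus, MED11 copies and experiment differ together and cannot be told apart. All 42 genes were called higher in the control by limma at an adjusted p under 0.1, where 57.8% of all 6324 genes tested were called higher and 13.3% lower. The median log2 fold change of TPM + 1 was 2.76 over the 42 genes and 0.36 over all genes. A log2 fold change above 2 was found for 34 of the 42, against 5.68% of all genes. Rescaling of the samples by the median of ratios moved the median of all genes to 0.00018 and that of the 42 genes to 2.39, and all 42 were again called higher. Over all genes, 3654 were called higher and 840 lower before this rescaling and 2204 and 2148 after it. The smallest rise was that of COX5B at 0.74, the largest that of SDH2 at 4.36.

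The complexes differed in the size of the rise. The median log2 fold change was 3.81 for succinate dehydrogenase, 3.16 for the bc1 complex, 3.15 for the cytochrome c group, 3.14 for the NADH dehydrogenases, 2.81 for cytochrome c oxidase and 2.12 for ATP synthase. The ATP synthase genes spanned 1.82 to 2.97 and the bc1 genes 2.49 to 3.67. Only ATP20 among the 13 ATP synthase genes exceeded the lowest bc1 gene, QCR6. Genes of 1 complex share a sample and are not replicates, and the difference between complexes was not tested. ATP synthase held the largest part of the summed TPM in every group, but its part of the total grew less. It rose from 0.263% ± 0.018 (SD, n = 3) in WT to 1.14% ± 0.0023 (SD, n = 3) in the control, while the bc1 complex went from 0.110% ± 0.0087 (SD, n = 3) to 0.850% ± 0.0023 (SD, n = 3).

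**Figure D2:**
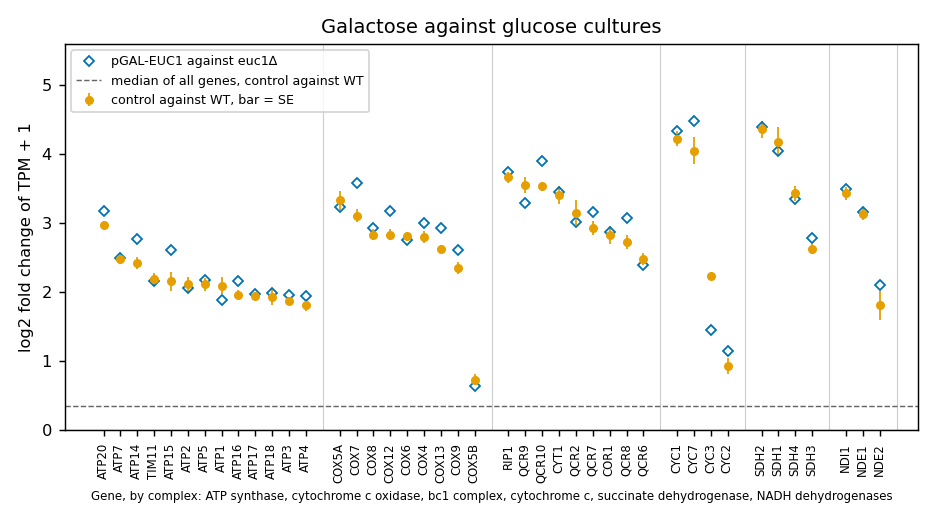
Log2 fold change of TPM + 1 (y axis) for each of the 42 genes, ordered by complex on the x axis, for control against WT (orange, bar = SE) and for pGAL-EUC1 against euc1∆ (blue diamonds), with the median of all genes at 0.36 as a dashed line. All points lie above the line, ATP synthase genes lie lower than most others, and CYC3 has the widest gap between both symbols.

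Succinate dehydrogenase links the TCA cycle to the chain. SDH2 (YLL041C, chromosome XII:53131-53931, R64, minus strand) encodes its iron-sulfur subunit. Its levels were 21.5, 27.43 and 31.56 TPM in WT and 564.26, 557.69 and 571.79 TPM in the control, and the log2 fold change was 4.36 with an SE of 0.12 and an adjusted p of 5.13e-08. SDH1 (YKL148C, chromosome XI), which encodes the flavoprotein, was at 9.77, 14.22 and 20.34 TPM in WT and at 282.64, 260.86 and 282.66 TPM in the control. The change was 4.19 (SE 0.21, adjusted p = 9.26e-07). SDH1 was the lowest of the 4 in both groups and its WT samples scattered widely, but the groups were far apart. SDH4, which encodes a membrane anchor, went from 32.9, 37.57 and 45.63 TPM to 431.64, 411.55 and 430.69 TPM (3.43, SE 0.11, adjusted p = 9.05e-08). SDH3, the other anchor, started highest and rose least, by 2.63. The 4 mean levels, which differed by up to 6.27-fold in WT, differed by up to 2.09-fold in the control.

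In the bc1 complex, the largest rise was that of RIP1 (YEL024W, chromosome V:107260-107907, R64, plus strand), which encodes the Rieske iron-sulfur protein. It was at 42.24, 49.11 and 50.77 TPM in WT and at 620.31, 617.22 and 600.95 TPM in the control, and the log2 fold change was 3.67 with an SE of 0.08 and an adjusted p of 1.57e-08. The small subunit genes QCR9 and QCR10, both with an intron in the R64 annotation, followed. QCR9 was at 61.11, 81.63 and 86.03 TPM in WT and at 899.42, 907.99 and 887.77 TPM in the control (3.56, SE 0.12, adjusted p = 1.05e-07). QCR10 was at 59.19, 59.03 and 52.37 TPM and at 664.99, 678.49 and 668.06 TPM (3.54, SE 0.07, adjusted p = 8.58e-09). CYT1, which encodes cytochrome c1, went from 40.77, 52.45 and 60.48 TPM to 572.51, 532.24 and 537.55 TPM (3.41, SE 0.13, adjusted p = 1.94e-07). In none of these genes did the groups come near each other. The gene with the highest level in WT, QCR6, rose least, by 2.49. The ratio of the highest to the lowest mean level within the complex was 7.03 in WT and 3.41 in the control.

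CYC1 (YJR048W, chromosome X:526335-526664, R64, plus strand) encodes the main cytochrome c and CYC7 (YEL039C, chromosome V) a minor form that is known from cells short of oxygen. CYC1 was at 77.3, 75.67 and 103.7 TPM in WT and at 1625.01, 1568.73 and 1627.06 TPM in the control, and the log2 fold change was 4.23 with an SE of 0.11 and an adjusted p of 4.02e-08. CYC7 was at 7.45, 4.44 and 4.56 TPM in WT and at 85.08, 120.99 and 109.74 TPM in the control, and the log2 fold change was 4.05 with an SE of 0.20 and an adjusted p of 7.28e-07. Both forms thus rose to a like extent. The ratio of CYC1 to CYC7 was 10.4 to 22.7 in the WT samples and 12.97 to 19.1 in the control samples, which overlap. The heme attachment genes rose less. CYC3, which encodes cytochrome c heme lyase, rose by 2.24 and CYC2, which encodes a mitochondrial protein that assists heme attachment, by 0.93.

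The isoforms of cytochrome c oxidase subunit 5 behaved differently. COX5A encodes the form used in aerated cells and COX5B the form known from cells short of oxygen. COX5A was at 88.16, 114.18 and 135.79 TPM in WT and at 1183.42, 1119.41 and 1088.71 TPM in the control, and the log2 fold change was 3.34 with an SE of 0.14 and an adjusted p of 3.12e-07. COX5B was at 44.5, 42.13 and 43.79 TPM in WT and at 70.11, 70.87 and 78.59 TPM in the control, and the log2 fold change was 0.74 with an SE of 0.08 and an adjusted p of 5.19e-05. COX5A had the largest rise of the 9 oxidase genes and COX5B the smallest of all 42. The ratio of COX5A to COX5B was 1.98 to 3.10 in the WT samples and 13.8 to 16.9 in the control samples. Without COX5B, the mean levels of the other 8 oxidase genes lay within 1.68-fold of each other in WT (104 to 175 TPM). In the control they lay within 1.51-fold (751 to 1131 TPM). The log2 fold changes of these 8 genes ran from 2.36 for COX9 to 3.34 for COX5A. With COX5B, the 9 genes spanned 4.02-fold in WT, the narrowest of the complexes. In the control they spanned 15.4-fold, where succinate dehydrogenase spanned 2.09-fold.

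Among the NADH dehydrogenases, NDI1, which encodes the enzyme on the matrix side, went from 19, 22.86 and 25 TPM in WT to 253.6, 243.71 and 250.59 TPM in the control (log2 fold change 3.43, SE 0.10, adjusted p = 5.89e-08). NDE1, which encodes the main enzyme facing the intermembrane space, was the most abundant of the 3 in every sample. It was at 80.23, 95.43 and 100.11 TPM in WT and at 832.86, 822.1 and 792.11 TPM in the control (3.14, SE 0.09, adjusted p = 4.35e-08). NDE2, its minor counterpart, was at 1.37, 2.87 and 2.05 TPM in WT and at 9.78, 9.29 and 9.92 TPM in the control (1.81, SE 0.21, adjusted p = 0.000115). At such low levels the added pseudocount of 1 TPM reduces the fold change, which is 4.61 as a ratio of the mean TPM of NDE2 and 3.51 as fitted. The ratio of NDE1 to NDE2 was 33.2 to 58.6 in WT and 79.8 to 88.5 in the control, and these ranges did not overlap.

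**Figure D3:**
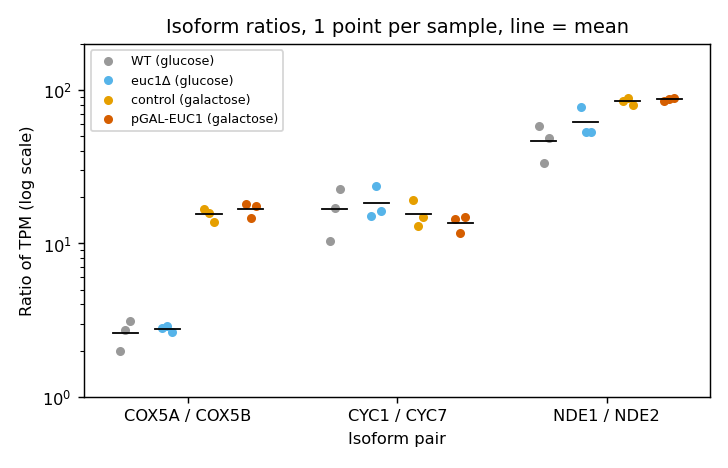
Ratio of TPM of the major to the minor isoform gene (y axis, log scale) in each sample, for COX5A and COX5B, CYC1 and CYC7, and NDE1 and NDE2 (x axis), coloured by group, with the mean as a line. The COX5A to COX5B ratio is 1.98 to 3.10 in the WT samples and 13.8 to 16.9 in the control samples, while the CYC1 to CYC7 ratio overlaps between them.

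In ATP synthase, the catalytic head genes ATP1 and ATP2, which encode the alpha and beta subunits, rose by 2.10 (SE 0.12) and 2.12 (SE 0.11) on the log2 scale. The largest rise was that of ATP20, which encodes subunit g of the membrane part that joins the enzyme into dimers. The mean of ATP20 was 61.6 TPM in WT and 490 TPM in the control, a log2 fold change of 2.97 (SE 0.06). The smallest was 1.82 (SE 0.08) for ATP4, which encodes a stalk subunit. The other members fell between these values, and all 13 passed the test. ATP20 had the lowest level of the 13 genes in every group, and ATP15, which encodes the epsilon subunit, the highest in WT, the control and pGAL-EUC1.

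The pair pGAL-EUC1 and euc1∆ shares no sample with the pair above and has the same difference of medium and strain background, with EUC1 far above its usual level against none. There, all 42 genes were again called higher, where 4334 of all 6319 genes tested were. The median log2 fold change of the 42 genes was 2.90, against 0.45 over all genes. The complex medians ran from 2.16 for ATP synthase to 3.71 for succinate dehydrogenase. Of the 10 genes with the largest rise, 9 were the same in both pairs. The fold changes of both pairs differed by a median of 0.13. The gene that differed most was CYC3, by 0.79.

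HAP4 encodes the activating subunit of the Hap2/3/4/5 complex, and its transcript changed with the respiratory genes. It was at 9.76, 15.36 and 17.53 TPM in WT and at 174.73, 164.27 and 169.57 TPM in the control, and the log2 fold change was 3.52 with an SE of 0.18 and an adjusted p of 9.74e-07. The genes for the DNA-binding subunits had smaller changes. HAP2 was at 18.04, 21.92 and 20.64 TPM and at 34.72, 36.35 and 35.08 TPM, a log2 fold change of 0.78. HAP3 was at 45.59, 43.7 and 34.2 TPM and at 65.77, 58.64 and 64.6 TPM, a log2 fold change of 0.61. HAP5 was at 22.95, 19.58 and 21.56 TPM and at 40.8, 40.08 and 44.14 TPM, a log2 fold change of 0.93. All 3 passed the test, against a median of 0.36 over all genes. HAP1, which encodes a heme-responsive activator of CYC1 and CYC7, was lower in the control. It was at 42.34, 51.35 and 50.75 TPM in WT and at 24.14, 22.96 and 27.05 TPM in the control (-0.93, SE 0.11, adjusted p = 9.53e-05). ROX1, which encodes the repressor of hypoxic genes, was at 26.88, 53.49 and 48.99 TPM in WT and at 101.6, 102.43 and 102.92 TPM in the control (1.29, SE 0.22, adjusted p = 0.00117). Of 8 regulators listed, 6 were called higher and 2 lower, where 57.8% of all genes were called higher and 13.3% lower. With the median of ratios 5 regulators were called higher and 2 lower, and 2204 and 2148 of all 6324 genes.

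The letters CCAAT, which the Hap complex recognises, were searched on both strands in the 500 bases upstream of each start codon in the R64 genome. They occurred upstream of 37 of the 42 genes (88.1%), against 62.4% of 6000 nuclear protein-coding genes, and at least 2 times upstream of 25 (59.5%), against 26.4%. The sequence ATTGTT, the core of the Rox1 site, whose letters ATTG also stand in ATTGG, the reverse complement of CCAAT, occurred upstream of 23 (54.8%) against 48.9%. A match is a description of the letters and not a site. The number of matches did not order the genes by their rise. The median log2 fold change was 2.80 in the 5 genes with no CCAAT, 3.04 in the 12 with 1 match and 2.49 in the 25 with more. The genes without it were COX4, CYT1, CYC1, CYC3 and NDE2, of which CYC1 had the second largest rise. For the genes of the 10 largest rises that hold the motif, the match nearest to the start codon is printed with CCAAT in capitals. The bases run from 5′ to 3′ on the coding strand. These genes were picked by their rise in this same comparison, and a link between motif and rise was not tested.
SDH2: ctcgcattggcCCAATtagctccggtg
SDH1: aagaaaaaaatCCAATttcatagtacg
CYC7: ggaccttttgcCCAATgaccattccat
RIP1: tccataacggaCCAATcagcgttttgc
QCR9: ttatacacgacCCAATcaaacgcgggg
QCR10: gtgattttgatCCAATtaaaactaaat
SDH4: taagcattgagCCAATcgctgctgttt
NDI1: agttttaactaCCAATtgaggagtttc
The first base of the motif lies 154 bases before the start codon in SDH2 (chrXII:54070-54096, minus strand), 35 in SDH1 (chrXI:171149-171175, minus strand) and 453 in CYC7 (chrV:80415-80441, minus strand). It lies 247 bases before it in RIP1 (chrV:107002-107028, plus strand), 207 in QCR9 (chrVII:859668-859694, minus strand) and 199 in QCR10 (chrVIII:107616-107642, plus strand). In SDH4 (chrIV:817706-817732, plus strand) the distance is 233 bases and in NDI1 (chrXIII:29877-29903, minus strand) 85. In the 27 bases around the SDH2 motif, a reverse copy of the motif, attgg, stands 1 base before the one in capitals.

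Genes that serve the same complexes also rose, with lower medians than the 42 genes. Over all genes, 57.8% were called higher and 13.3% lower, with a median of 0.36. Of 15 genes for assembly and inhibition of ATP synthase, 15 were called higher, with a median log2 fold change of 1.23. They were led by the inhibitor genes INH1 (3.57) and STF1 (2.98), followed by ATP19 (2.37), which encodes a small subunit found in dimers, and STF2 (1.84). Of 30 oxidase assembly genes, 29 were called higher and none lower, with a median of 1.13. COX26, which encodes a small protein of the respiratory supercomplex, stood out with 4.3, 7.31 and 8 TPM in WT and 306.11, 257.61 and 299.75 TPM in the control, a log2 fold change of 5.29. It exceeded all 42 core genes, ahead of the assembly factor COA2 (2.22), the heme A synthase COX15 (2.04) and the assembly factor COA3 (1.86). Of 10 bc1 assembly genes, 9 were called higher, led by CBP4 (2.50) and CBP6 (1.70), and of 7 genes for succinate dehydrogenase assembly and its paralogues, 6, led by SDH6 (2.36) and SDH5 (2.03).

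All 13 TCA cycle genes were called higher, where 57.8% of all genes were called higher and 13.3% lower. The median of these 13 was 1.98, and the citrate synthase genes CIT1 (3.21) and CIT3 (2.61) led. Of 5 other dehydrogenase genes (GUT2, DLD1, CYB2, DLD2 and URA1), 4 were called higher and 1 lower, URA1 (-1.39). Among those called higher were GUT2 (3.69), which oxidises glycerol-3-phosphate, and CYB2 (3.44), which oxidises lactate. All 11 ubiquinone synthesis genes were called higher, with a median of 0.54 against 0.36 for all genes, and with the median of ratios 6 were called higher and 1 lower. Of the 5 carriers of phosphate and adenine nucleotides, PET9 (2.14), MIR1 (2.10), AAC1 (2.09) and PIC2 (2.06) were called higher and AAC3 (-2.49), the form of cells short of oxygen, was called lower. Among 6 hypoxic genes tested, 3 were called higher and 3 lower, and CYC7 (4.05) moved opposite to TIR1 (-3.02) and AAC3. Counts called higher for the assembly lists with the median of ratios were 13 of 15, 26 of 30, 9 of 10 and 6 of 7, and 13 of 13 for the TCA cycle. Over all 6324 genes, 2204 were then called higher and 2148 lower.

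Overexpression of EUC1 was compared with the control within galactose cultures of 1 strain background, which addresses the effect of excess Euc1 on these genes. The clear change was a fall of CYC3 (YAL039C, chromosome I:68716-69525, R64, minus strand), the cytochrome c heme lyase gene. It was at 232.31, 233.45 and 242.27 TPM in the control and at 136.98, 136.39 and 133.31 TPM with pGAL-EUC1. The groups were far apart and replicates agreed closely, and the log2 fold change was -0.80 (SE 0.04, adjusted p = 6.19e-05), the 0.49th percentile of all genes. It was the only member called lower, where 4.42% of 6332 genes were called lower, and 3 members were called higher, where 16.0% of all genes were. Over all genes, 1014 were called higher and 280 lower, and with the median of ratios 288 and 526. In the alternatives and with each sample left out, the change of CYC3 stayed between -0.87 and -0.78 and the adjusted p between 3.54e-05 and 0.00137.

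The other genes of cytochrome c maturation did not follow CYC3. CYC2 was at 33.84, 32.07 and 31.11 TPM in the control and at 33.58, 34 and 34.31 TPM with pGAL-EUC1 (log2 fold change 0.07, SE 0.05, adjusted p = 0.371). CYT2, the heme lyase of cytochrome c1, was at 135.93, 136.29 and 144.64 TPM and at 131.82, 125.92 and 137.62 TPM (-0.08, SE 0.05, adjusted p = 0.312), with overlapping groups. CYC1, the protein on which CYC3 acts, rose slightly, from 1625.01, 1568.73 and 1627.06 TPM to 1732.33, 1706.51 and 1815.74 TPM (0.12, SE 0.04, adjusted p = 0.0688).

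CYC3 is transcribed away from CDC19 (YAL038W, chromosome I:71786-73288, R64, plus strand), which encodes the main pyruvate kinase, and 2260 bases lie between their coding regions. CDC19 was also lower with pGAL-EUC1, at 1945.58, 1817.7 and 1952.39 TPM against 2611.07, 2492.75 and 2583.77 TPM in the control, and the log2 fold change was -0.43 with an SE of 0.04 and an adjusted p of 0.00214. CLN3, the neighbour on the other side of CYC3, which encodes a G1 cyclin, was at 66.37, 64.75 and 64.31 TPM against 68.56, 68.27 and 71.42 TPM (-0.09, SE 0.04, adjusted p = 0.183). In the deletion experiment CYC3 was at 48.47, 48.65 and 50.5 TPM in WT and at 52.17, 45.03 and 49.71 TPM in euc1∆, and the groups overlapped (-0.009, SE 0.085, adjusted p = 0.997). In the same comparison CDC19 changed by 0.19 (adjusted p = 0.765). Whether CYC3 and CDC19 share a cause was not tested.

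**Figure D4:**
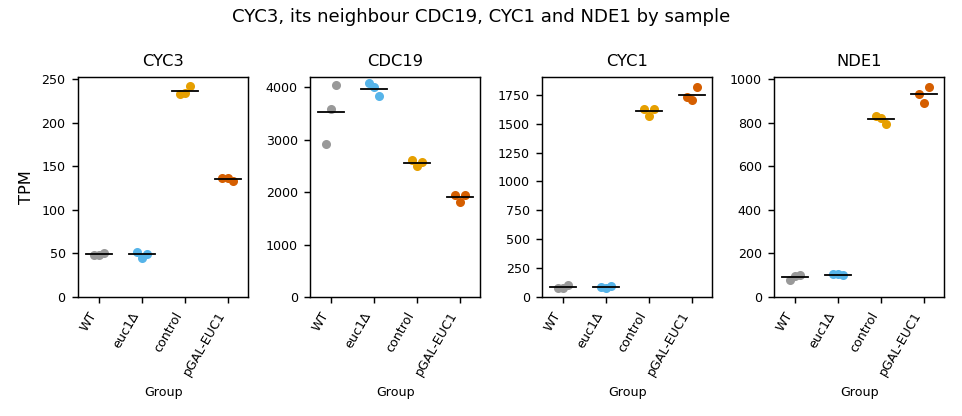
Level of CYC3, its neighbour CDC19, CYC1 and NDE1 (y axis, TPM from 0, separate scale for each gene) in the 3 samples of each of the 4 groups (x axis), with the mean as a line. CYC3 lies at 133.31 to 136.98 TPM with pGAL-EUC1 and at 232.31 to 242.27 TPM in the control, and CDC19 is also lower with pGAL-EUC1.

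The members called higher were NDE1, ATP16 and CYC1, all by small amounts. NDE1 went from 832.86, 822.1 and 792.11 TPM in the control to 932.29, 892.03 and 965.26 TPM with pGAL-EUC1 (log2 fold change 0.19, SE 0.04, adjusted p = 0.0331). ATP16, which encodes the delta subunit of ATP synthase, went from 701.85, 664.72 and 670.86 TPM to 754.89, 712.69 and 774.87 TPM (0.14, SE 0.04, adjusted p = 0.0806). In these 2 genes and CYC1 the groups did not overlap, but these calls were not stable. With the median of ratios, which moved the median of all genes from 0.079 to 0.007, none of them passed and NDE1 had an adjusted p of 0.109. None of them passed without pGAL-EUC1 replicate 1 (adjusted p of 0.126 for NDE1, 0.179 for CYC1 and 0.229 for ATP16), and of the 3 only NDE1 without pGAL-EUC1 replicate 3, control replicate 2 or control replicate 3. Without control replicate 1, CYC1 did not pass (adjusted p = 0.117). CYC7 had the largest fitted rise, from 85.08, 120.99 and 109.74 TPM to 120.23, 145.96 and 122.71 TPM, but the groups overlapped and the adjusted p was 0.156 (0.31, SE 0.13).

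The remaining members differed little. The median log2 fold change over the 42 genes was 0.031, below the 0.079 of all genes, and 28 of 42 were above 0, where 72.8% of all genes were. With the median of ratios it was -0.043, against 0.007 for all genes, and 3 members were called lower, CYC3, ATP14 and ATP17, and none higher. By complex, the median was 0.13 for the NADH dehydrogenases, 0.097 for the cytochrome c group and 0.060 for succinate dehydrogenase. It was 0.031 for the bc1 complex, 0.025 for ATP synthase and 0.003 for cytochrome c oxidase. This order did not hold after correction of each sample for length and GC content, which gave 0.12, 0.12, 0.077, 0.049, 0.012 and 0.078. The rank correlation of the log2 fold change with coding length was 0.525 over the 42 genes and 0.11 over all genes, as a description. The isoform ratios stayed close to those of the control. COX5A to COX5B was 14.7 to 18.2 with pGAL-EUC1, CYC1 to CYC7 was 11.7 to 14.8 and NDE1 to NDE2 was 85.4 to 88.7, and each range overlapped that of the control.

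None of the 8 regulators was called by limma in the overexpression comparison, and 0 had an unadjusted p under 0.05, but with the median of ratios 2 were called lower. At that unadjusted p, 24.6% of all genes were higher and 6.33% lower, and with the median of ratios 526 of 6332 were called lower. HAP4 was at 168.15, 157.48 and 162.09 TPM with pGAL-EUC1, overlapping the control (-0.06, SE 0.04, adjusted p = 0.367). The values of the other regulators with pGAL-EUC1 were 22.16 to 23.12 TPM for HAP1, 35.78 to 39.29 for HAP2, 59.54 to 62.12 for HAP3, 39.61 to 42.19 for HAP5 and 99.74 to 107.21 for ROX1. Of the 5 other dehydrogenase genes, 4 were called higher, CYB2 (0.38), DLD1 (0.32), GUT2 (0.23) and URA1 (0.19), where 16.0% of all genes were. With the median of ratios 3 of the 5 were called higher. Of 13 TCA cycle genes, 8 were called higher, among them IDH2 (0.27), FUM1 (0.25) and CIT3 (0.24), but 2 with the median of ratios. Without pGAL-EUC1 replicate 1 none of them passed. The count was 3 without pGAL-EUC1 replicate 3 or control replicate 2, 5 without control replicate 1 and 6 without control replicate 3. It was 7 with the correction for length and GC content and 10 without pGAL-EUC1 replicate 2. The difference between these lists and the 42 genes was not tested.

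The counts of assembly genes called with pGAL-EUC1 depended on single samples. Over all genes, 16.0% were called higher and 4.42% lower. At an unadjusted p under 0.05 by limma, 24.6% of all genes were higher and 6.33% lower. With the median of ratios, 288 of all 6332 genes were called higher and 526 lower. Of 30 oxidase assembly genes, 3 were called higher and 5 lower, among them COX26 (-0.37), the copper chaperone COX17 (-0.30), the heme O synthase COX10 (-0.22) and SCO2 (0.22). With the median of ratios 0 were called higher and 8 lower, and with the correction for length and GC content 4 and 2. Without pGAL-EUC1 replicate 1 the counts were 0 and 1, without pGAL-EUC1 replicate 2 they were 2 and 6, and without pGAL-EUC1 replicate 3 they were 1 and 2. Without control replicate 1, 2 or 3 they were 1 and 5, 3 and 2, and 1 and 3. Of 10 bc1 assembly genes, CBP6 (-0.27) and MZM1 (-0.17) were called lower, and 3 genes with the median of ratios. None passed without pGAL-EUC1 replicate 1, and 1 passed without pGAL-EUC1 replicate 3, without any 1 of the control samples or with the correction for length and GC content. Among 15 genes for ATP synthase assembly and inhibition, STF2 (0.30) was called higher and ATP11 (-0.17) lower. With the median of ratios 0 were called higher and 2 lower, and without pGAL-EUC1 replicate 1, pGAL-EUC1 replicate 3 or control replicate 2 none was called. Without pGAL-EUC1 replicate 2 or control replicate 1, 1 was called higher and 2 lower. No gene for succinate dehydrogenase assembly or its paralogues was called by limma, and 1 had an unadjusted p under 0.05, but 1 was called higher with the correction for length and GC content and 1 without control replicate 3.

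Of 11 ubiquinone synthesis genes, 3 were called higher, COQ11 (0.32), COQ7 (0.24) and COQ4 (0.22), where 16.0% of all genes were. With the median of ratios 1 was called, without any 1 of the pGAL-EUC1 samples or control replicate 1 also 1, and without control replicate 2 it was 2. Of the 5 carriers, PIC2 (0.52) was called higher, and 1 was called with the median of ratios, while 2 were called without pGAL-EUC1 replicate 2. Of 7 hypoxic genes, HEM13 (0.24) was called higher and TIR1 (-1.43) lower, where 4.42% of all genes were called lower. No hypoxic gene was called higher with the median of ratios or without pGAL-EUC1 replicate 1, pGAL-EUC1 replicate 3, control replicate 1 or control replicate 3, and 2 were with the correction for length and GC content. The count called lower stayed at 1 in these fits and was 2 without pGAL-EUC1 replicate 2.

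The comparison of euc1∆ with WT in glucose addresses the effect of losing Euc1 on the respiratory genes. MED11 was also lower in euc1∆ (35.88 to 48.39 TPM) than in WT (62.01 to 65.62 TPM). Effects of the loss of EUC1 and of lower MED11 cannot be told apart here. No member was called by limma at an adjusted p under 0.1 in either direction. Over all 6217 genes, 0.0161% were called higher and 0.0161% lower, 1 gene each, so that this fit of log TPM gave almost no calls anywhere. The paper tested read counts, with another test and threshold, and reports many more changed genes in euc1∆. With all 12 samples in a single limma fit, 0 members were called higher and 4 lower, COX7, QCR10, ATP14 and COX13. That fit called 30 of all 6217 genes higher and 71 lower. At an unadjusted p under 0.05, 1 member was higher (2.48% of all genes) and 8 were lower (5.07% of all genes). The groups did not overlap for 7 members that were lower in euc1∆ (7.37% of all genes) and for 0 that were higher (5.71% of all genes). The median log2 fold change of the 42 genes was -0.050, against 0.005 for all genes, and 18 were above 0, where 51.7% of all genes were.

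The lower members were small subunits. COX7, which encodes a small oxidase subunit, was at 133.04, 125.08 and 112.14 TPM in WT and at 88.03, 82.76 and 78.95 TPM in euc1∆, and the log2 fold change was -0.56 with an SE of 0.09 and an adjusted p of 0.160. ATP15 had the largest fitted difference, from 319.05, 496.41 and 363.03 TPM to 301.65, 194.05 and 271.71 TPM (-0.62, SE 0.20, adjusted p = 0.530). In both genes all euc1∆ samples were below all WT samples, by a wide margin in COX7 and narrowly in ATP15. For QCR10, ATP14, QCR8, ATP20, COX9 and COX13 the values were -0.46, -0.41, -0.38, -0.28, -0.28 and -0.24, with adjusted p between 0.283 and 0.600. ATP1 had the largest fitted rise, from 177.74, 213.23 and 258.96 TPM to 252.13, 262.04 and 273.68 TPM (0.29, SE 0.13, adjusted p = 0.656), with overlapping groups.

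These 8 lower members all lie among the 17 shortest of the 42, with coding lengths from 180 bp (COX9) to 390 bp (COX13). Short genes were lower in euc1∆ across the whole table. The rank correlation of the log2 fold change with coding length was 0.417 over 5666 genes and 0.592 over the 42, given as a description, since all genes share the same 6 samples. The 21 members of up to 465 bp had a median of -0.21, and the 731 genes of that length in the table -0.12. The 21 longer members had a median of 0.010, and the longer genes 0.019. After correction of each sample for length and GC content, the medians were -0.032 and 0.043, COX7 was at -0.37 (unadjusted p = 0.00353, adjusted p = 0.502) and no member was called. Whether the length of the transcripts accounts for what remains was not tested.

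**Figure D5:**
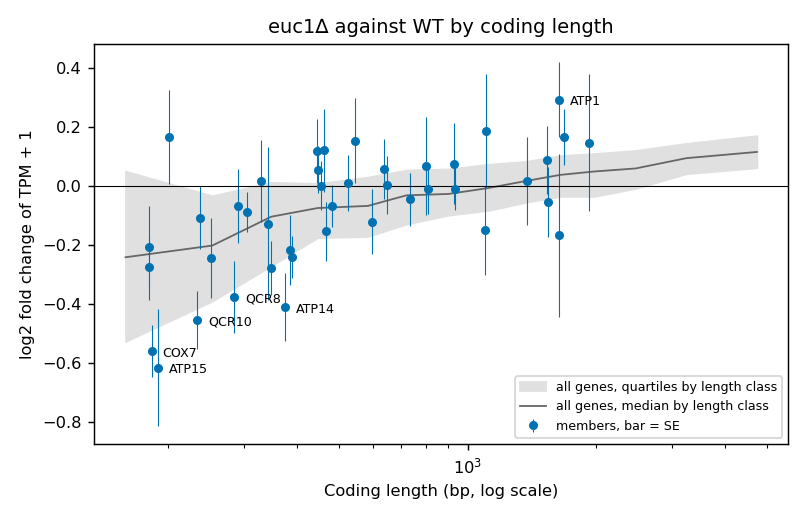
Log2 fold change of TPM + 1 in euc1∆ against WT (y axis) by coding length (x axis, bp, log scale) for the 42 genes (blue, bar = SE), with the median (line) and quartiles (band) of all genes in classes of length. Most short members and the median of short genes lie below 0, with the short gene QCR9 above it, and COX7, ATP15, QCR10 and ATP14 are among the members below the band.

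Several genes for core subunits had values near 0 in this comparison. ATP2 changed by 0.088 (SE 0.11), COR1 by 0.017 (SE 0.15), RIP1 by 0.004 (SE 0.099) and SDH2 by 0.068 (SE 0.17). CYC1 was at 82.81, 77.86 and 97.7 TPM in euc1∆ and changed by 0.018 (SE 0.14). CYC7 was at 5.5, 3.29 and 6.01 TPM and changed by -0.13 (SE 0.26), a spread that leaves room for sizeable differences. COX5A was at 118.52, 121.07 and 122.64 TPM, COX5B at 42.11, 41.88 and 46.63 TPM, NDE1 at 103.97, 104.9 and 99.46 TPM and NDE2 at 1.33, 1.96 and 1.86 TPM. The isoform ratios overlapped those of WT, at 2.63 to 2.89 for COX5A to COX5B, 15.1 to 23.7 for CYC1 to CYC7 and 53.5 to 78.2 for NDE1 to NDE2.

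The regulators did not pass either. HAP4 was at 14.24, 13 and 14.69 TPM in euc1∆ (log2 fold change 0.012, SE 0.20), within the range of WT, and ROX1 at 50.82, 22.7 and 35.84 TPM (-0.25, SE 0.32). HAP1 was at 50.48 to 54.99 TPM, HAP2 at 17.87 to 19.29, HAP3 at 40.09 to 41.15 and HAP5 at 21 to 24.05, and each overlapped WT. In the 10 lists of related genes, 0 were called by limma, and between 0 and 4 genes of a list had an unadjusted p under 0.05. The highest number, 4 of 30, was that of oxidase assembly. Over all genes, 2.48% were higher and 5.07% lower at that threshold.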

How the data were processed

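Poly(A) RNA of 12 samples was sequenced as 75-bp single-end reads. Reads were mapped by the authors with STAR 2.6.0a to ENSEMBL R64-1-1 transcripts, and the deposited table holds TPM from RSEM 1.3.0. Whether counting used strand is not given in the sources used here. The header of the table has no cell for the gene identifiers, and 0 columns of values were left unused. Of 6825 identifiers, 5903 matched a locus tag of R64 (RefSeq), which gave symbols, coordinates and coding lengths. All 42 members matched, none overlaps another annotated gene, and all their 75-base windows are unique in the genome. TPM sums were 973736 to 993435 per sample, and the reads behind a value are unknown.

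Each comparison was fitted on its 6 samples with limma 3.58.1 in R 4.3.3 (lmFit, eBayes with trend) on log2(TPM + 1). Genes averaging under 1 TPM were left out, and the two-sided p-values received a Benjamini-Hochberg adjustment across every gene tested. Genes were called at an adjusted p under 0.1. The fit was tested on simulated data whose changes were larger than those of any member in the deletion and overexpression comparisons. That test does not cover changes as small as those of the members there. Fold changes are on the log2(TPM + 1) scale, which understates the change of low genes. The 2 comparisons with the control share its samples, as the 2 comparisons with WT share theirs. The labels call the samples biological triplicates, and p-values measure only the spread between them. Values by sample were given for members called in the deletion or overexpression comparison, the largest rise and fall of each comparison, the isoform pairs, the 10 largest changes of control against WT, and HAP1 to HAP5 and ROX1. In lists, up to 4 called genes with the largest change were named. An item withheld from the text is not reported here. CYT2, CDC19 and CLN3, the samples of COX26, and the core genes and members near 0 that are named outside these rules were chosen after their values were seen. The members and lists were chosen with earlier results of these data known. Motifs were searched with Python 3.11.15, and figures drawn with matplotlib 3.10.9. The alternatives were pseudocounts of 0.1 and 5, a minimum mean of 10 TPM or none, scaling by the median of ratios, a table restricted to nuclear open reading frames, 1 model for all 12 samples, no trend, a replicate block, correction for length and GC content, other thresholds, each sample left out and, for control against WT, pGAL-EUC1 against euc1∆ and all 6 against all 6 samples.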

Additional observations from a re-analysis of the deposited data

How the results depend on the processing

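In control against WT, the count of 42 members called higher stayed at all members tested in every alternative, and the median moved to 2.39 with the median of ratios and to 2.90 in pGAL-EUC1 against euc1∆. In euc1∆ against WT, 4 members (COX7, QCR10, ATP14 and COX13) were called lower with all 12 samples in a single fit or at an unadjusted p under 0.01. In the other alternatives 0 were. The single fit called 71 of all 6217 genes lower, and the share of all genes at the unadjusted p under 0.01 is not given here. The median of -0.050 turned to 0.017 with the correction for length and GC content and to 0.008 without WT replicate 3. In pGAL-EUC1 against the control, the 3 members called higher became 0 with the median of ratios or all 12 samples, 1 without trend or at an adjusted p under 0.05, and 6 with the correction for length and GC content. The 1 called lower became 3 with the median of ratios. The median of 0.031 became -0.043 with the median of ratios and 0.054 with the length and GC correction. With a sample left out it ran from 0.032 to 0.052, the count called higher from 0 to 7 and the count called lower from 1 to 4, the highest counts without pGAL-EUC1 replicate 2. CYC3 was called lower in all alternatives.

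Replicate numbers are shared between groups, but same-numbered samples did not deviate together, with correlations of deviations from -0.107 to 0.189. With the replicate block, 5 members were called higher with pGAL-EUC1 (CYC7 and CYT1 added), and 7 with the block and the length and GC correction, with a median of 0.054. In euc1∆ against WT, 0 were called and in control against WT 42. List counts with the median of ratios, the length and GC correction or a sample left out were chosen after seeing the data.

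Over all genes, 1 was called higher and 1 lower in euc1∆ against WT, 30 and 71 with all 12 samples, and 0 or 1 and 0 to 3 in the other alternatives at that threshold. In pGAL-EUC1 against the control, 1014 and 280 became 288 and 526 with the median of ratios and 102 and 61 with all 12 samples, and with a sample left out 164 to 804 and 99 to 277, the lowest without pGAL-EUC1 replicate 1. In control against WT, 3654 and 840 became 2204 and 2148 with the median of ratios.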
